A study of Saccharomyces cerevisiae with 48 samples.

Results

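The mRNA of the largest yeast cells of a cell size series, harvested at 75 fl, was compared with that of cells harvested 5 fl earlier, at 70 fl. The comparison takes the 3 libraries labelled 75 fl and the 3 labelled 70 fl from the mRNA libraries, 6 of 48 libraries in all, and covers all 3301 counted genes. The cells were of the diploid laboratory strain BY4743 of Saccharomyces cerevisiae, grown in rich glucose medium (YPD) and sorted by centrifugal elutriation, a separation by size that yields newborn unbudded cells. The elutriated fractions grew on until they reached the chosen size. Each library comes from a pool of elutriated cells of 1 size, and the 3 pools of a size, A, B and C, are described in the labels as independent replicates. Both groups share strain and medium, and the labelled size goes with the time in culture after elutriation. Size stands in for cell cycle position here, and the sources used here do not give the share of cells in each pool that had already divided.

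In budding yeast, mitosis ends when the phosphatase Cdc14 is released and the B-type cyclins are destroyed. Genes of the M/G1 boundary are then switched on, in part by the transcription factor Swi5 once it enters the nucleus. Among them are SIC1, which encodes an inhibitor of the mitotic cyclin kinase, and CTS1, a chitinase that parts mother and daughter. The mitotic transcripts of the CLB2 cluster and the histone transcripts of S phase decline on the way to the next G1.

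The 6 libraries held 832733 counted reads (70 fl, C) to 5797532 (70 fl, A). Levels are log2 CPM, the log2 of counts scaled to a common library size (CPM) with TMM factors. Libraries 70 A and 75 B stood apart: Pearson correlations across genes between either of them and any of the other 5 libraries were 0.868 to 0.932. Among the remaining 4, the same-size pairs gave 0.948 and 0.951 and the pairs of different size 0.943 to 0.961, so that 2 libraries of different size were as alike as 2 of the same size. Genes with fewer than 10 reads in any mRNA library are not in the count table, which removes most mitotic regulators, and HIS3, LEU2 and URA3, deleted in this strain, are among the genes not counted. Of 19 markers of haploid and mating cells none was counted, and of 18 of meiosis and spore formation 1 was, SSP1, at 5.11 to 5.95 at 70 fl and 4.95 to 5.89 at 75 fl. In such bulk libraries, fewer cells of a kind and less RNA per cell cannot be told apart.

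No gene passed an adjusted p of 0.05 between 75 and 70 fl in edgeR's quasi-likelihood test with Benjamini-Hochberg adjustment (0 of 3301, or 0%), and the smallest adjusted p was 0.463. At an unadjusted p under 0.05 there were 183 genes (5.54%), 92 higher (2.79%) and 91 lower (2.76%). DESeq2 called 1 gene, ATG22, and limma-voom 0. The groups did not overlap in 209 genes that were higher at 75 fl (6.33%) and in 166 that were lower (5.03%). The median size of a difference, regardless of sign, was 0.23 on the log2 scale, and the 95% interval of a difference reached a median of 0.607 to either side of it. For 2212 genes (67%) the interval lay within ±1 log2, and for 3277 (99.3%) within ±2 log2. In simulated counts with the same depths, 39% of changes of 1 log2 and 99% of changes of 2 log2 were recovered. There 100 genes were changed by each amount, counts were drawn independently, and no library stood apart. With 142 calls the adjusted threshold was also easier to pass than in the real data, so these shares are not the power of the present comparison. As no gene passed, all differences below are values that did not pass the test, given with their spread.

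**Figure D1:**
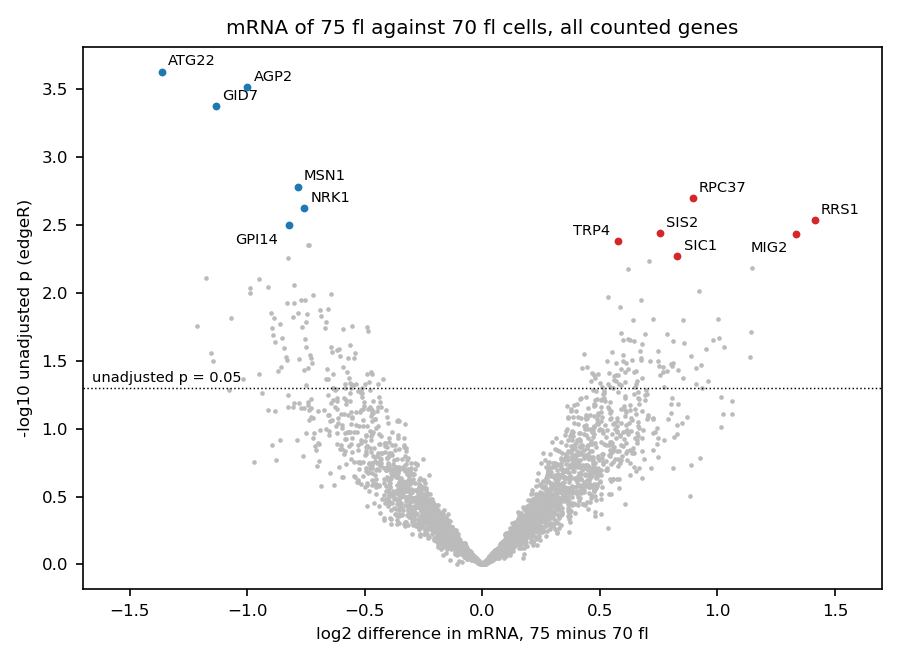
Each of 3301 genes is 1 point. The horizontal axis is the log2 difference in mRNA, 75 minus 70 fl, and the vertical axis is −log10 of the unadjusted p of edgeR, with a dotted line at the usual limit. The labelled genes are the 6 with the smallest p in each direction, lower ones in blue and higher ones in red; ATG22 has the smallest p (0.000235, edgeR), and no gene passed after adjustment.

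Of the 29 genes listed for the M/G1 boundary, 6 were counted, and the difference was positive for each of them, with a median of 0.61, beside 1778 of all 3301 genes (53.9%) with a median of 0.03. None passed the test. SIC1 (YLR079W, chromosome XII, 286820 to 287674 in build R64) stood at 8.58, 8.93 and 9.22 in the 70 fl libraries A, B and C and at 9.51, 9.69 and 10.02 in those of 75 fl. All 3 libraries at 75 fl were above all 3 at 70 fl, and above the range of 8.76 to 9.33 at 65 fl. The difference was 0.83 (SE 0.27, 95% interval 0.27 to 1.39; unadjusted p = 0.00536, edgeR adjusted p = 0.803). Of these 6 genes, only SIC1 had groups that did not overlap, beside 6.33% of all genes higher without overlap.

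The other 5 counted M/G1 genes encode proteins of the wall, the septum and fatty acid activation. HSP150, a secreted wall glycoprotein, stood at 9.57, 9.54 and 8.28 at 70 fl and at 8.61, 11.15 and 10.13 at 75 fl, a difference of 1.06 (SE 0.54). Its 75 fl libraries spanned more than the difference itself, with A below 2 of the 3 libraries at 70 fl. PRY3, a wall protein that binds sterols, read 7.97, 7.69 and 6.93 against 7.23, 8.81 and 8.34, a difference of 0.67 (SE 0.35). CTS1 read 8.96, 8.65 and 6.83 against 8.11, 9.11 and 9.37, a difference of 0.55 (SE 0.45). In both genes 70 C and 75 A were the lowest of their groups, and the groups overlapped. CHS1, the chitin synthase that repairs the wall after cell separation, read 7.35, 7.40 and 7.22 against 7.91, 8.03 and 7.37, a difference of 0.47 (SE 0.22, unadjusted p = 0.0404). Only 75 C lay within the range of 70 fl. At 65 fl CHS1 had read 7.79, 7.54 and 7.84, above all its 70 fl libraries. FAA3, an acyl-CoA synthetase, had the smallest difference of the 6, 0.22 (SE 0.29). Over the 6 genes the library medians were 8.28, 7.76 and 7.81 at 65 fl and 8.27, 8.17 and 7.07 at 70 fl. At 75 fl they were 8.01, 8.96 and 8.86, with 75 A below 70 A and 70 B.

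Without libraries 70 A and 75 B, the M/G1 median was 0.52 with 5 of 6 differences positive. Without 75 B alone it was 0.32 with 6 of 6 positive, and without replicate A at every size 1.02. Against newborn cells of 40 fl, 5 of the 6 genes were called higher at 75 fl and 4 of 6 at 70 fl; both counts use the same 3 libraries of 40 fl, and 11.6% and 11.3% of all genes were called higher in those comparisons (783, or 23.7%, and 839, or 25.4%, in either direction). The count at 75 fl was 4 without 75 B or 75 C, under the replicate block and in limma-voom, and 3 without replicate B. It was also 4 without replicate C and without any 1 of the 3 libraries of 40 fl. That at 70 fl was 3 or 4 under each alternative run. SIC1 was higher than at 40 fl by 3.25 (SE 0.30, edgeR adjusted p = 5.87e-07) at 75 fl and by 2.42 (SE 0.30, edgeR adjusted p = 1.78e-05) at 70 fl. HSP150 was higher than at 40 fl by 1.61 (SE 0.56, edgeR adjusted p = 0.0396) at 75 fl and had a difference of 0.54 (SE 0.55) at 70 fl that did not pass. Its difference between 75 and 70 fl, the direct test, did not pass.

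**Figure D2:**
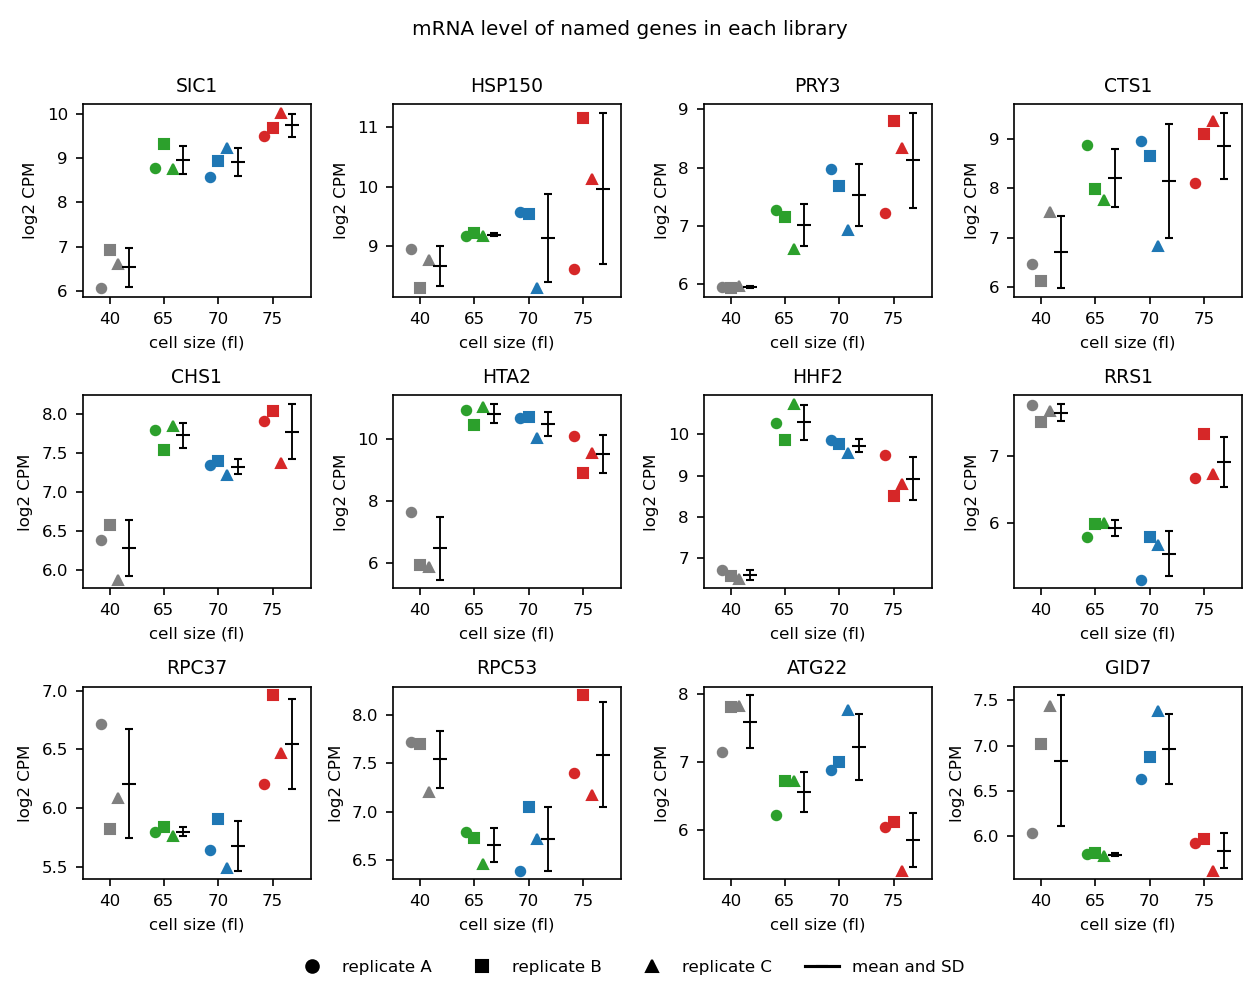
Each panel gives the mRNA level of 1 gene in log2 CPM on the vertical axis against the labelled size in fl on the horizontal axis. Circles, squares and triangles are replicates A, B and C, and the bar to the right of them is the mean with its SD (n = 3). SIC1, RRS1, RPC37 and RPC53 at 75 fl lie above all 3 libraries of 70 fl, ATG22, GID7 and HHF2 below; the groups overlap in HSP150, PRY3, CTS1, CHS1 and HTA2.

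The 23 M/G1 genes outside the count table can be described from the authors' deposited table of pooled log2 levels, which holds 1 value per size for each gene, set against the gene's own mean, so that there is no replicate error. Of these 23 genes, 17 were higher at 75 than at 70 fl in the authors' deposited table, with a median difference of 0.49. Beside them, 1124 of the 3176 ORFs outside the count table were higher, with a median of −0.18 in the authors' deposited table. Over all 6477 ORFs, counted ones included, 2819 were higher (43.5%), with a median of −0.07 in the authors' deposited table. Differences above 1 log2 were held by 111 ORFs (1.71%) and differences below −1 by 349 (5.39%) in the authors' deposited table. Of 3 uncounted genes listed as auxotrophic markers of this strain, 2 had differences above 1 there, with a median of 1.18 for the 3. That list includes the deleted HIS3, LEU2 and URA3, so a pooled rise of a single uncounted gene is uncertain. ASH1, the daughter-specific repressor of mating-type switching, had a value of 0.42 at 70 fl and of 1.63 at 75 fl in the authors' deposited table, the latter being its highest of the 8 sizes. EGT2, a wall protein of cell separation, went from 0.91 to 1.69, and PCL9, a G1 cyclin of the kinase Pho85, from 0.41 to 1.41 in the authors' deposited table. The daughter-separation gene DSE2 went from 0.89 to 1.27, the septum glucanase gene SCW11 from 1.08 to 1.36, and AMN1, an inhibitor of the mitotic exit pathway, from 0.74 to 1.28 in the authors' deposited table. At 65 fl AMN1 had stood at 1.10 and PCL9 at 0.98 there, above their 70 fl values. CDC6, which loads the replicative helicase at origins, went from 0.21 to 0.91 there, also its highest value of the 8 sizes in the authors' deposited table. Not all members moved this way. DSE1 went from 1.11 to 0.91, RME1, a regulator that represses meiosis, from 0.81 to 0.23, and PIR3, a wall protein, from 0.11 to −0.38 in the authors' deposited table.

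The mitotic genes of the CLB2 cluster showed no common direction. Of 30 listed genes 10 were counted, and 5 of the 10 differences were positive, with a median of −0.01. ALK1, a mitotic protein kinase, stood at 9.04, 8.75 and 9.0 at 70 fl and at 9.26, 8.89 and 8.72 at 75 fl, a difference of 0.04 (SE 0.40, 95% interval −0.79 to 0.86). MYO1, the myosin of the cytokinetic ring, stood at 9.03, 9.15 and 9.66 and at 9.61, 8.99 and 9.03, a difference of −0.06 (SE 0.40, 95% interval −0.90 to 0.77). For both genes the groups overlapped and the intervals are wide. SPO12, an activator of the early release of Cdc14, had a difference of 0.35 (SE 0.33), and PMP1, a small regulator of the plasma membrane proton pump, one of −0.81 (SE 0.42). The median of the 10 genes ran from −0.27 without replicate B to 0.24 without replicate C. At both sizes 7 of the 10 were called higher than at 40 fl, beside 11.6% (75 fl) and 11.3% (70 fl) of all genes. At 75 fl the count was 4 without 40 fl replicate A or without replicate C, and 5 without 75 B.

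In the authors' deposited table the B-type cyclins CLB2 (1.02 at 70 fl, 0.93 at 75 fl) and CLB1 (0.97, 0.77) and the factor SWI5 (0.85, 0.92) were nearly level between the last 2 sizes. The anaphase activator CDC20 went from 0.59 to 1.34 and the polo kinase CDC5 from 0.43 to 1.02 in the authors' deposited table, where CDC5 had stood at 1.06 at 65 fl. The septum chitin synthase CHS2 stood at 1.17 and 1.05 and the bud site gene BUD4 at 0.93 and 0.84 in the authors' deposited table. At 75 fl, then, each of these 7 mitotic genes was still above its own mean over sizes in the authors' deposited table. The G1 cyclins CLN1 (0.31, 0.02) and CLN2 (0.25, 0.19) differed little there. WHI5, the inhibitor of the G1/S switch, stood at −0.45 at 65 fl, 0.82 at 70 fl and −0.16 at 75 fl in the authors' deposited table. The pooled 70 fl values include library 70 A. CLN3 was also counted: it stood at 5.49, 4.70 and 5.01 at 70 fl and at 4.21, 6.10 and 5.05 at 75 fl, a difference of 0.25 (SE 0.39) in groups that overlapped.

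**Figure D3:**
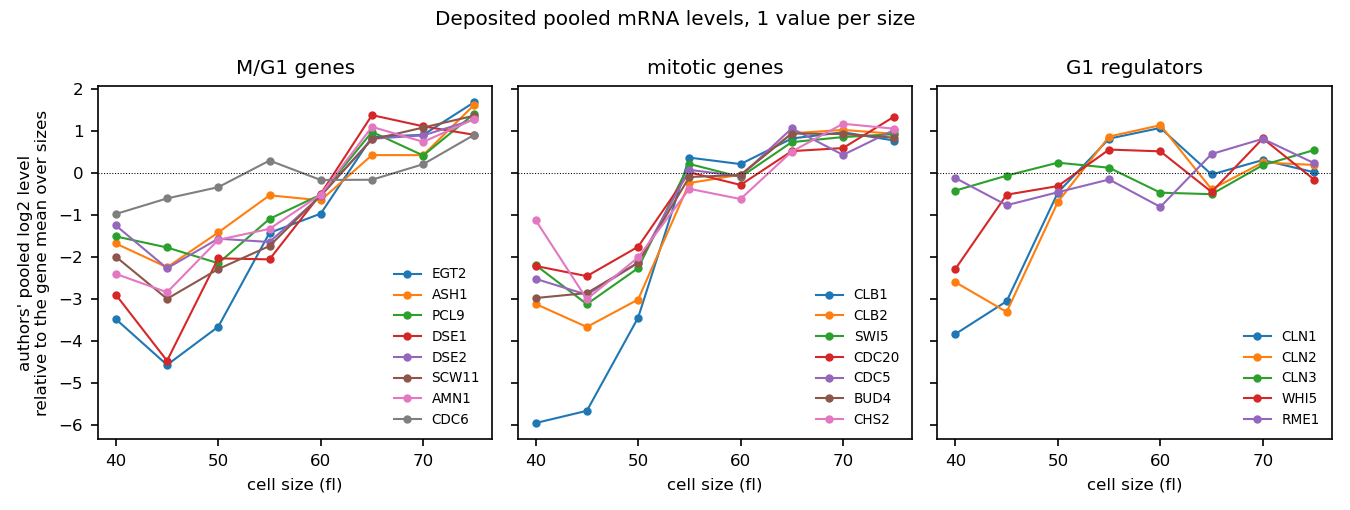
Lines give the authors' deposited pooled mRNA level, in log2 against the mean of that gene over the 8 sizes, on the vertical axis against size in fl on the horizontal axis, with 1 value per size and no error. EGT2, ASH1, PCL9 and CDC6 have their highest value at 75 fl, CLB1, CLB2, SWI5 and BUD4 are nearly level from 65 to 75 fl, and WHI5 is lower at 75 than at 70 fl.

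The machinery of mitotic exit was measured in 13 of 37 listed genes, with 9 positive differences and a median of 0.06. Without 75 B 4 of the 13 were positive, with a median of −0.05. CDC14 itself read 6.65, 6.53 and 6.48 at 70 fl and 6.85, 7.48 and 6.52 at 75 fl, a difference of 0.46 (SE 0.25, unadjusted p = 0.0793), with 75 B the highest library. CDC55, a regulatory subunit of the phosphatase PP2A, had a difference of 0.36 (SE 0.25), which was −0.02 without 75 B. APC11, a catalytic subunit of the anaphase-promoting complex, had one of −0.42 (SE 0.31). Of septin and cytokinesis genes 15 of 25 were counted, 11 with positive differences (median 0.14), and of spindle and kinetochore genes 12 of 37, 5 with positive differences (median −0.05, and 0.06 without 70 C). RHO1, the GTPase of wall synthesis and ring contraction, read 8.74, 8.51 and 8.41 against 8.41, 7.79 and 8.08, a difference of −0.45 (SE 0.24), with 70 C and 75 A level. BNR1, a formin that nucleates actin cables, had a difference of 0.47 (SE 0.30). The kinesins KIP3 and KIP1 had differences of −0.58 (SE 0.39) and −0.45 (SE 0.31).

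Genes of the next cycle gave no call either. Of the MCM helicase and other early cell cycle box (ECB) targets, which are read at the M/G1 boundary, 7 of 13 were counted and 5 were higher, with a median of 0.13. MCM6 read 6.62, 6.70 and 7.00 against 7.05, 7.58 and 6.90 (difference 0.44, SE 0.24) and MCM2 6.39, 6.23 and 6.64 against 6.45, 7.12 and 6.65 (difference 0.36, SE 0.21). In both genes 75 B was the highest of the 6 libraries, and without 75 B the median of the 7 genes was −0.15. TAH11, which loads the helicase with Cdc6, was lower by value, with a difference of −0.47 (SE 0.35). Of the G1/S targets of the factors SBF and MBF 10 of 42 were counted, 6 with positive differences (median 0.16, but −0.02 without 75 A, −0.03 without 70 C and 0.30 without 75 B), and the S phase cyclin CLB5 had a difference of 0.37 (SE 0.23).

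Core histone transcripts, which accumulate in S phase, were lower at 75 fl by value in 7 of 7 counted genes, of 8 listed, with a median difference of −0.40, beside 46.1% of all counted genes, and none passed. Members of each pair are nearly identical in sequence, and the sources used here do not say how their shared reads were assigned, so each single histone value is uncertain. HHF2 (histone H4) stood at 9.85, 9.76 and 9.54 at 70 fl and at 9.49, 8.50 and 8.79 at 75 fl, a difference of −0.74 (SE 0.41, unadjusted p = 0.0863). HHF1, the second H4 gene, read 9.93, 9.95 and 9.82 against 9.79, 8.60 and 8.95, a difference of −0.70 (SE 0.44). These were the 2 of 7 histone genes without overlap, beside 5.03% of all genes, though 75 A lay just below the lowest library of 70 fl in each. HTA2 (histone H2A) had the largest histone difference, −0.91 (SE 0.49), with 75 A at 10.11 above 70 C at 10.03, and HTA1 the smallest, −0.19 (SE 0.37). Over the 7 genes the library medians were 9.95, 10.03 and 9.82 at 70 fl and 10.07, 8.90 and 9.25 at 75 fl, so that 75 A was as high as the 70 fl libraries. Without 70 A and 75 B the median difference was −0.14. At 75 fl 7 of 7 histone genes were called higher than at 40 fl, beside 11.6% of all genes (5 of 7 without replicate C), HTA2 by 2.77 (SE 0.52, edgeR adjusted p = 0.000924).

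Ribosome biogenesis genes, which encode the factors that build ribosomal subunits in the nucleolus, were higher at 75 fl by value in 121 of 126 counted genes, with a median difference of 0.47. None passed the test, and 18 (14.3%) had groups that did not overlap, beside 6.33% of all genes. RRS1 (YOR294W, chromosome XV, 868340 to 868951), an assembly factor of the large subunit, stood at 5.15, 5.78 and 5.67 at 70 fl and at 6.66, 7.33 and 6.73 at 75 fl. The groups were apart, and the difference of 1.41 (SE 0.43, 95% interval 0.54 to 2.29; unadjusted p = 0.0029, edgeR adjusted p = 0.803) was the largest among all counted genes. ALB1, another large subunit factor, read 6.84, 7.81 and 7.46 against 8.44, 8.23 and 8.14, a difference of 0.86 (SE 0.35), with all 75 fl libraries higher. REI1, which acts on the large subunit in the cytoplasm, read 5.53, 6.40 and 5.63 against 6.18, 7.93 and 6.24, a difference of 1.14 (SE 0.45) in groups that overlapped.

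The list's median level was 6.85, 7.91 and 7.64 in the 70 fl libraries and 8.05, 8.08 and 7.94 in those of 75 fl, so that 70 A was lowest by far and 70 B was nearly level with 75 C. Without 70 A the median difference was 0.24 with 105 of 126 positive, and without 70 A and 75 B it was 0.21 with 100 positive. RRS1 kept 0.97 (unadjusted p = 0.0735) without both libraries. Relative to the 3 libraries of 40 fl, whose list medians were 8.89 to 9.01, 77 of the 126 genes were called lower at 70 fl and 37 at 75 fl, beside 14.1% and 12.1% of all genes, and none higher at either size. Both counts depend on single libraries: that at 70 fl was 39 without 70 A and 37 without replicate C, and that at 75 fl was 22 without 75 A, 24 without 75 B, 25 without 75 C, 23 without 40 fl replicate C, 7 without replicate B and 8 without replicate C. The same 40 fl libraries enter both counts, and the difference between 77 and 37 was not itself tested. RRS1 was lower than at 40 fl by value at 75 fl (−0.71, SE 0.42, edgeR adjusted p = 0.231) and was called lower at 70 fl (−2.12, SE 0.44, edgeR adjusted p = 0.00171). Of 127 such genes, 124 were higher at 75 than at 70 fl in the authors' deposited table, with a median of 0.69; the pooled values include all 3 replicates, 70 A too.

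**Figure D4:**
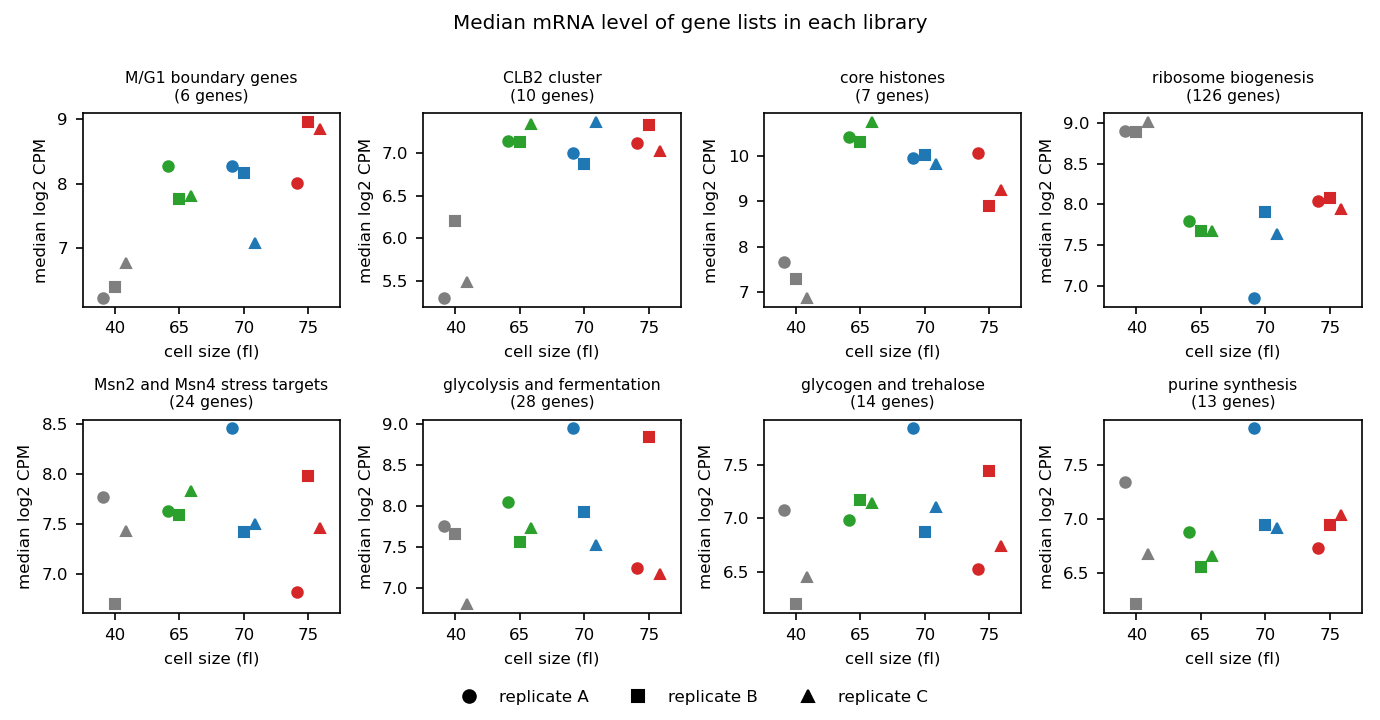
Each panel gives the median log2 CPM of the counted members of 1 gene list in each library against size in fl; circles, squares and triangles are replicates A, B and C. Ribosome biogenesis in 70 A (6.85) lies below all other libraries shown, and stress and glycolysis medians are high in 70 A and 75 B.

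Other genes of growth and translation were closer to the background. Translation factors were higher by value in 30 of 37 genes, with a median of 0.24, and without 75 B in 21 of 37 with a median of 0.11. RPG1 and TIF34, subunits of initiation factor eIF3, had differences of 0.70 (SE 0.35) and 0.61 (SE 0.35). Cytosolic ribosomal protein genes had 57 of 132 positive differences and a median of −0.06 (−0.22 without 70 C and 0.05 without 70 B). Within them RPS11A (0.81, SE 0.33) and RPS16A (−0.83, SE 0.36) had the smallest p; each has a near-identical copy, and RPS11B (0.57) and RPS16B (−0.56) had the same sign as their partner, so that the share of each copy is uncertain. Amino acid synthesis was positive in 34 of 43 genes (median 0.18), but in 19 of 43 without 75 B. TRP4, of tryptophan synthesis, read 6.29, 6.31 and 6.38 against 6.89, 6.96 and 6.85, the tightest of the separated groups among the 12 genes with the smallest p in this direction (difference 0.58, SE 0.18, unadjusted p = 0.00416). ILV2, the first enzyme of branched-chain synthesis, read 7.97, 8.47 and 8.01 against 8.66, 9.01 and 8.84 (difference 0.68, SE 0.25), and LYS21, of lysine synthesis, had a difference of 0.64 (SE 0.26).

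**Figure D5:**
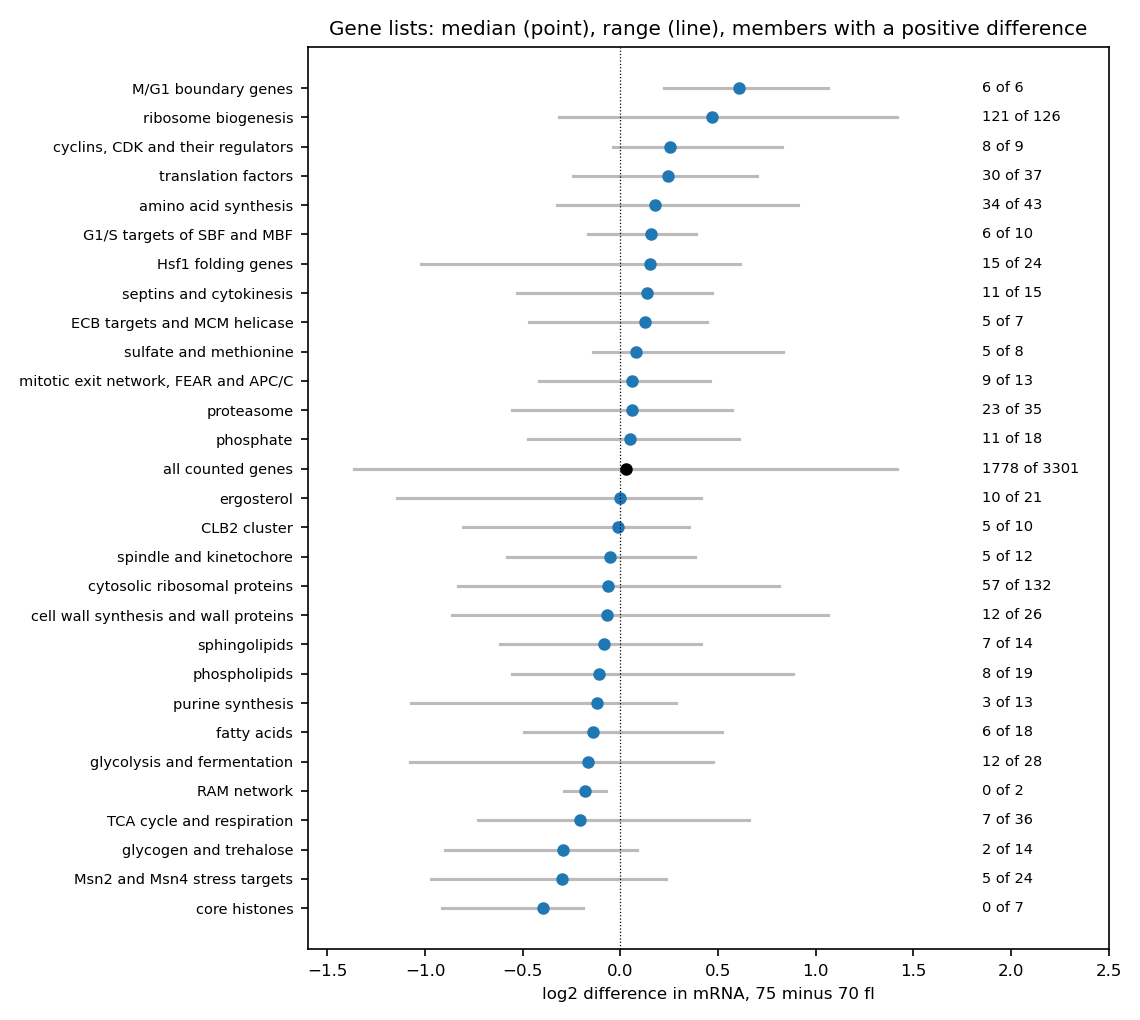
Each row is a gene list with at least 2 counted genes. The point is the median and the line the range of its members' log2 differences, 75 minus 70 fl, on the horizontal axis, and the figures at the right give how many counted members were positive. The M/G1 genes (median 0.61) and ribosome biogenesis (0.47) lie highest and the core histones (−0.40) lowest, with all counted genes (black) at 0.03.

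Among the 12 genes with the smallest p and a higher level at 75 fl were 2 partner subunits of RNA polymerase III, the enzyme that makes transfer RNA and 5S ribosomal RNA. RPC37 (YKR025W, chromosome XI, 487770 to 488618) stood at 5.64, 5.91 and 5.49 at 70 fl and at 6.21, 6.96 and 6.47 at 75 fl, a difference of 0.90 (SE 0.26, unadjusted p = 0.00202, edgeR adjusted p = 0.803). RPC53 (YDL150W, chromosome IV, 183343 to 184611) read 6.39, 7.05 and 6.72 against 7.40, 8.20 and 7.17, a difference of 0.92 (SE 0.33, unadjusted p = 0.00968). Neither gene's groups overlapped, beside 6.33% of all genes higher without overlap, and 75 B was the highest library in both. Both genes were chosen by smallest p in these same libraries, which favours separated groups, so the separation adds no support. The subunits of this enzyme were not examined as a list. SIS2, which promotes late G1 transcription and is a regulatory subunit of the phosphatase Ppz1, read 8.04, 8.43 and 8.63 against 9.0, 9.12 and 9.28 (difference 0.76, SE 0.23). PSH1, a ubiquitin ligase that clears misplaced centromeric histone, read 6.10, 6.8 and 6.44 against 7.91, 7.42 and 7.47 (difference 1.15, SE 0.38). MIG2, a glucose repressor, had a difference of 1.34 (SE 0.41) that rested on 1 library: it stood at 5.43 to 5.79 at 70 fl and at 5.65 and 5.98 in 75 A and C, but at 7.88 in 75 B. The rest of the 12 were IES3, PIB2, MRP7 and the genes given above, with differences of 0.54 (MRP7) to 1.41 (RRS1).

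Of the 12 genes with the smallest p and a lower level at 75 fl, each had groups that did not overlap, beside 5.03% of all genes. A choice by smallest p in these same libraries favours such groups, so this count adds no support. ATG22 (YCL038C, chromosome III, 54941 to 56527), a vacuolar exporter of amino acids that works after autophagy, stood at 6.88, 7.00 and 7.77 at 70 fl and at 6.05, 6.12 and 5.41 at 75 fl. Its difference of −1.36 (SE 0.31, unadjusted p = 0.000235, edgeR adjusted p = 0.463) was the largest negative one, and DESeq2 gave it an adjusted p of 0.0429; over the 16 alternatives its adjusted p ranged from 0.0429 to 1. GID7 (YCL039W, chromosome III, 52645 to 54882), a subunit of the ubiquitin ligase that removes gluconeogenic enzymes, is the next gene on the chromosome, 58 bases away. GID7 stood at 6.63, 6.87 and 7.38 at 70 fl and at 5.93, 5.97 and 5.62 at 75 fl, a difference of −1.13 (SE 0.28, unadjusted p = 0.000421). In both genes 70 C was the highest and 75 C the lowest library, and without 70 A and 75 B the differences were −1.68 and −1.37. Without 70 C they were −1.04 and −0.91, and without replicate C −0.85 and −0.81 (unadjusted p = 0.038 and 0.0313, edgeR). The sources used here do not say whether counting used the strand, so reads of these neighbours may be shared. The flanking genes GLK1 (−0.48, SE 0.44) and SRO9 (−0.70, SE 0.44) had groups that overlapped.

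AGP2, a plasma membrane regulator of polyamine and carnitine uptake, read 5.52, 5.37 and 5.99 against 4.44, 4.69 and 4.76, a difference of −0.999 (SE 0.24, unadjusted p = 0.000305, edgeR adjusted p = 0.463). ATG22, AGP2 and GID7 were each higher by value at 70 than at 65 fl, by 0.69 (SE 0.31), 0.94 (SE 0.23) and 1.19 (SE 0.27). The step from 65 to 70 fl shares the 70 fl libraries with the present comparison, and it too gave no call in edgeR (0 of 3301, with 173 at an unadjusted p under 0.05, or 5.24%), while DESeq2 called 12. Against 40 fl the 3 genes were called lower at 75 fl, ATG22 by value −1.71 (SE 0.32, edgeR adjusted p = 0.00093). MYO2, also among the 12 and the myosin that carries cargo into the bud, read 8.19, 7.96 and 8.22 against 7.43, 7.64 and 7.04 (difference −0.74, SE 0.23). LAS17, which activates actin patches, read 6.81, 6.36 and 6.99 against 6.05, 5.81 and 5.95 (difference −0.80, SE 0.28), and KRE5, needed for wall glucan, had a difference of −0.74 (SE 0.23). In the cell wall list, where 12 of 26 differences were positive with a median of −0.07, GSC2, a glucan synthase subunit, had one of −0.83 (SE 0.30) and PSA1, which makes the mannose donor of wall proteins, one of −0.86 (SE 0.33). Without 70 A that list's median was 0.18 with 21 positive, and without 70 A and 75 B it was 0.00 with 14 positive. MYO2, LAS17, KRE5, GSC2 and PSA1 had also been higher by value at 70 than at 65 fl, by 0.49, 0.97, 0.58, 1.37 and 0.85. The SE of these differences were 0.23, 0.28, 0.23, 0.31 and 0.33. YHR054C (−0.95) is a partial copy at the repeated CUP1 locus of its neighbour RSC30 (−0.91), and the share of reads between them is uncertain.

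Stress and glycolysis genes were highest in the 2 libraries that stood apart, 70 A and 75 B. Targets of the stress factors Msn2 and Msn4 had list medians of 8.46, 7.42 and 7.5 at 70 fl and 6.82, 7.98 and 7.47 at 75 fl. The median difference of −0.30, with 5 of 24 positive, became 0.05 with 13 of 24 positive without 70 A. Without 75 B it was −0.55 with 2 of 24 positive, and without both libraries −0.15 with 9 of 24 positive. Glycolysis and fermentation had medians of 8.95, 7.92 and 7.53 and of 7.24, 8.84 and 7.17, with 70 A and 75 B the highest of each group. Its median difference was −0.17 over all 6 libraries, 0.27 without 70 A and −0.46 without both. TDH1, a glyceraldehyde-3-phosphate dehydrogenase, read 9.0, 7.11 and 7.09 against 5.59, 7.81 and 6.64 (difference −1.08, SE 0.53). Respiration genes (7 of 36 positive, median −0.21) and glycogen and trehalose genes (2 of 14, median −0.29) came to −0.04 and −0.02 without 70 A. Without 75 B they came to −0.22 and −0.63, and without both libraries to −0.06 and −0.27. The part of these 2 libraries in the differences was not tested beyond leaving them out.

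Purine synthesis was negative in 10 of 13 genes, with a median of −0.12. ADE4, the first enzyme of that pathway, read 8.49, 7.08 and 7.26 against 6.61, 6.74 and 6.74, a difference of −1.07 (SE 0.41, unadjusted p = 0.0154), and 70 A was again the highest library. Without 70 A the list median was 0.11 with 8 of 13 positive. Without 75 B it was −0.37 with 3 of 13 positive, and without both libraries −0.16 with 4 of 13 positive. ADE4 had been higher by value at 70 than at 65 fl, by 1.34 (SE 0.41).

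Enzymes of lipid synthesis, the subject named in the study's title, gave no call in mRNA between the last 2 sizes. List medians were −0.14 for fatty acids (18 genes counted), −0.11 for phospholipids (19), 0.00 for ergosterol (21) and −0.08 for sphingolipids (14), and none of these genes passed. The signs depend on single libraries: without 70 A the medians were 0.19 for fatty acids (12 of 18 positive) and 0.16 for ergosterol, and without 75 B −0.31 and −0.25. The phospholipid median was 0.02 without 70 C, and the sphingolipid median −0.21 without 75 B. The acetyl-CoA carboxylase gene ACC1 had a difference of −0.06 (SE 0.33, 95% interval −0.74 to 0.62), and the fatty acid synthase genes FAS1 and FAS2 had differences of −0.14 (SE 0.37, 95% interval −0.90 to 0.61) and 0.26 (SE 0.40, 95% interval −0.57 to 1.09). Intervals this wide leave room for moderate changes in either direction. In the ergosterol list UPC2, the sterol-sensing activator, read 6.11, 5.95 and 6.83 against 5.65, 5.68 and 4.76 (difference −0.89, SE 0.36, unadjusted p = 0.0203). ERG28 (−1.15, SE 0.50), a scaffold of sterol enzymes, and ERG7 (−0.47, SE 0.22), lanosterol synthase, also had lower groups without overlap. That held for 4 of the 21 genes of the list, beside 5.03% of all genes. UPC2, ERG28 and ERG7 had been higher by value at 70 than at 65 fl. The differences of that step were 1.20 (SE 0.36), 0.75 (SE 0.48) and 0.22 (SE 0.21).

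Ribosome footprints of the same pools, the fragments that ribosomes protect from nuclease, also gave no call between 75 and 70 fl (edgeR, 0 of 3301, with 43 at an unadjusted p under 0.05, or 1.3%; DESeq2 and limma-voom 0). Depth limits that comparison. The 70 fl footprint libraries A and C held 155910 and 55709 reads, against 918861 to 2664167 at 75 fl, FAR11 alone took 16.3% of 70 A, and 1307 genes had no read in 70 C. SIC1 had a footprint difference of 0.97 (SE 0.75) and RRS1 one of 0.54 (SE 0.79). Ribosome biogenesis genes had positive footprint differences in 91 of 126 (median 0.20), beside 1959 of all 3301 genes (59.3%, median 0.09), core histones in 0 of 7 (median −0.38) and the M/G1 genes in 5 of 6 (median 0.41). ATG22 and GID7, lower in mRNA by value, had footprint differences of 0.30 (SE 0.57) and 0.32 (SE 0.74), but SIC1, RRS1, ATG22 and GID7 each had no read in footprint library 70 C, so that these differences rest on 70 A and 70 B and on a floor in 70 C.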

How the data were processed

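Messenger RNA was measured in 24 libraries, 3 at each of 8 sizes, and ribosome footprints in 24 more of the same pools. The labels gave each sample's assay and size. The tools named in the submitters' processing notes are TopHat2 2.1.0 and Bowtie 1.1.2 for genome build R64, RSEM 1.2.20, SAMtools 1.3-1, cutadapt 1.8 and bcl2fastq 2.17.1.14, with no word on the tool behind each table.

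The authors deposited whole-number read counts, not normalized, for 3301 genes; the lowest count in any mRNA library is 10. The headers do not name the assay of each count table, so it was taken from a comparison with levels per library in a log2 table the authors deposited (3291 genes), to whose column of the same name in 1 assay block all 24 columns of each table were closest. A further table of log2 levels deposited by the authors, with replicates pooled (6713 ORFs, 6477 with both sizes), was only described. Its assay is not named in it; its profiles over sizes had a median correlation per gene of 0.934 with the mRNA counts and of 0.112 with the footprints. Symbols came from a reference table of assembly R64, which matched 3260 ORF names; 41 did not match.

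The test was that of edgeR 4.0.16 under R 4.3.3 (quasi-likelihood, TMM factors within each assay) in 1 fit of the 24 libraries of an assay with a term per size, two-sided, with Benjamini-Hochberg adjustment over all genes and a threshold of 0.05. No gene was lost to the low count filter. Levels are log2 CPM with a prior count of 2. As the pools are the replicates, p-values measure the spread between pools.

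Alternatives tried were DESeq2 1.42.0, limma-voom (limma 3.58.1), median-of-ratios scaling in edgeR, no filter, only the 6 libraries compared, a replicate block, and leaving out each replicate or library. Leaving out 70 A and 75 B together, and the comparison of 70 with 40 fl, were added after seeing the data. Named genes were the 12 with the smallest p in each direction with a mean of at least 10 CPM (no gene passed), for each list the 3 members of smallest p, and a panel of cell cycle and lipid genes, of which some are left out. GLK1, SRO9, RSC30, RPS11B, RPS16B and PRY3, as well as CHS2, CDC6 and CLN3 from the pooled table, were added after their values were seen. The genes compared, the lists, the panel and the tests were chosen with earlier results of these data known. Lists were described by counts and medians without a test. The fit was checked on simulated counts of 3301 genes, with 4 false among 142 calls. No sequences are shown, and 1 item is not reported here. Figures used Python 3.11.15 with matplotlib 3.10.9.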

Additional observations from a re-analysis of the deposited data

How the results depend on the processing

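The count of calls between 75 and 70 fl was 0 in limma-voom, 0 in edgeR under each alternative run, and 1 in DESeq2; leaving out a replicate or library gave 0 to 0. At an unadjusted p under 0.05, 183 genes became 78 without 70 A and 77 without 70 A and 75 B, and 142 to 238 under the other omissions. The replicate block gave 0 calls (197 at an unadjusted p under 0.05) and changed no sign among 125 named genes. Same-letter libraries of the 2 sizes deviated from their group means with correlations of −0.333 (A), −0.294 (B) and 0.149 (C). With 3 libraries a size, 70 A and 75 B among them, these values cannot show whether a letter marks a shared batch. Among the named genes signs changed in 11 of 125 without replicate A, 10 without B and 8 without C, and in 0 under median-of-ratios size factors.

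For 70 against 65 fl, DESeq2 and the fit of only the 6 libraries compared each called 12 genes against 0, and leaving out replicates or libraries gave 0 to 1. For 75 against 40 fl, 783 calls became 412 with only the 6 libraries compared and 208 to 682 under omissions. For 70 against 40 fl, 839 calls became 241 to 791 under omissions. Footprints between 75 and 70 fl gave 0 calls under every alternative, 0 to 0 under omissions, and without the 70 fl libraries A and C 1 gene had an unadjusted p under 0.05, against 43. The causes were not tested. Depth and 3 pools a size limit what can be seen. In simulated counts 39% of 1 log2 changes were recovered, but no library stood apart there and the adjusted threshold was easier to pass. That share is therefore not the power of the present comparison.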

Other observations

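Genes of protein folding and turnover, read by the factor Hsf1 or belonging to the proteasome, held a few separated groups without a call between 75 and 70 fl. In the proteasome list 23 of 35 counted genes were higher at 75 fl by value, with a median of 0.06 (15 of 35 and −0.03 without 75 B). RPT2, an ATPase of the proteasome base, stood at 9.53, 9.60 and 9.35 at 70 fl and at 10.21, 9.73 and 10.22 at 75 fl, a difference of 0.57 (SE 0.26, unadjusted p = 0.0405, edgeR adjusted p = 0.803). PRE6, a core subunit, read 8.53, 8.66 and 8.83 against 9.41, 8.96 and 8.91 (difference 0.43, SE 0.26), and RPN8, of the lid, read 9.38, 9.40 and 9.35 against 8.67, 8.43 and 9.25 (difference −0.55, SE 0.34). In the proteasome list the groups were separated in 4 genes that were higher (11.4%) and 1 that was lower (2.86%). Of all genes 6.33% and 5.03% were separated in these directions. Among the Hsf1 genes 15 of 24 were higher by value, with a median of 0.15, but without 75 B 7 of 24 were, with a median of −0.16. The groups were separated in 1 of the 24 (4.17%, higher). HSP10, the mitochondrial co-chaperonin and one of them, had a difference of −1.02 (SE 0.48) with 70 A the highest library at 7.31.

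In the phosphate list VTC4, the polyphosphate polymerase, read 8.35, 8.48 and 8.44 at 70 fl and 9.03, 9.26 and 8.73 at 75 fl, a difference of 0.61 (SE 0.28, unadjusted p = 0.0385), and PHO84, the phosphate importer, read 9.42, 10.16 and 9.87 against 10.30, 10.46 and 10.18 (difference 0.47, SE 0.33). Both had groups that did not overlap, the 2 separated genes of 18 (11.1%), beside 6.33% of all genes higher without overlap. In that list 11 of the 18 counted genes were higher by value, with a median of 0.05. Without 75 B 6 of the 18 were, with a median of −0.07, and without 75 C the median was 0.26. Neither passed after adjustment (edgeR adjusted p = 0.803 and 0.825).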
